A study of Homo sapiens with 6 samples.

Results

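The transcripts described here are those of 10 enzymes that remove or add methyl groups on lysine 9 of histone H3 (H3K9). They were chosen by gene name, as KDM3A, KDM3B, JMJD1C, KDM4A, KDM4C, EHMT1, EHMT2, SUV39H1, SUV39H2 and SETDB1, and all 10 were found once among the 60612 genes of the deposited tables. RNA sequencing compared 3 libraries labelled with the genotype ABCF1 and 3 labelled NC-1, all from cells labelled HepG2, an established human liver tumour line. The series describes stable lines overexpressing ABCF1, a ribosome-associated ATP-binding cassette protein, and its design speaks of forms with lysine replaced by arginine. The labels give no dose, time or clone, do not say what NC-1 stands for, and do not say which form of ABCF1 a library carries. Whether replicates are separate cultures is not stated, and the p-values below therefore speak only of library-to-library spread, possibly technical.

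Methylated H3K9 marks silent chromatin. SUV39H1, SUV39H2 and SETDB1 can build the trimethylated form that heterochromatin proteins bind, whereas EHMT1 (GLP) and EHMT2 (G9a) work as a pair that places the mono- and dimethylated forms in euchromatin. KDM3A and KDM3B remove mono- and dimethyl groups, KDM4A and KDM4C remove di- and trimethyl groups, and KDM3A is itself a known target of the hypoxia-inducible factors (HIF). These demethylases need iron, oxygen and 2-oxoglutarate.

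Total counts ran from 62323034 to 77394510 per library. The ABCF1 transcript averaged 158 ± 3.62 CPM in NC-1 and 106 ± 4.05 CPM in ABCF1 (mean and SD, n = 3), CPM being counts relative to a library size corrected by TMM. The targeted transcript thus goes against the label, and every direction below is that of the libraries as labelled. Of 9 liver markers, 8 (among them ALB, APOB and TTR) stayed under 1 RPKM in every library, and HNF4A alone was expressed, at 14.99 to 31.2 RPKM, so the secreted liver proteins go against the stated cell line. Of 4 epithelial markers, the keratins KRT8 and KRT18 were at 608 to 893 RPKM, EPCAM at 4.96 to 8.21 RPKM and CDH1 (E-cadherin) at 0.0207 to 0.0799 RPKM. Of 4 mesenchymal markers, VIM (vimentin) was as high as the keratins, at 767 to 842 RPKM, COL1A1 was at 10.3 to 15.6 RPKM, FN1 at 0.158 RPKM at most and COL1A2 at 0. The leukocyte marker PTPRC was at 0, and the endothelial markers PECAM1 and CDH5 stayed at or below 0.531 RPKM. On the first principal component of all tested genes, 2 libraries (ABCF1 replicate 3 at 47.2 and NC-1 replicate 2 at 42.0) stood away from the remaining 4, which scored -29.3 to -6.96. A gene's deviation in a library also followed its GC content, with a Spearman rho over genes of 0.24 to 0.33 in ABCF1 libraries and -0.31 to -0.20 in NC-1 libraries. For transcript length the rho was -0.48 in ABCF1 replicate 3 and -0.26 in NC-1 replicate 2, against 0.0041 to 0.36 in the other 4 libraries.

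Short stretches upstream of the start sites of 5 of these genes are shown because KDM3A is a HIF target and because the other 4 are the members with a difference in at least one fit below. The HIF core was searched as ACGTG and as GCGTG on both strands in the 250 bases before each RefSeq start site (GRCh38.p14, the assembly family the files use), and matches are in capitals, with forms on the opposite strand reading CACGT or CACGC and both strands of ACGTG joining as CACGTG. The KDM3A stretch is chr2:86441333-86441362 on the plus strand, JMJD1C chr10:63522103-63522132 on the minus strand, EHMT2 chr6:31897884-31897913 on the minus strand, SUV39H1 chrX:48696704-48696733 and SUV39H2 chr10:14878641-14878670 on the plus strand.
KDM3A: ccgggaggctgtGCGTGtcttgtgagagct
JMJD1C: ctcctcctaccaCACGTGaccgaatggcaa
EHMT2: acctgggcccagGCGTGtctcgccctcggt
SUV39H1: ctgcgcgttcccggcCACGCccgcgcgagc
SUV39H2: aggatccgggagCACGCgcgctcgccccgc
The KDM3A match begins 26 bases before the start site used, which lies inside the gene's interval in the files. The start sites used for SUV39H1 and SUV39H2 also lie inside their genes' intervals. Each stretch shows the match farthest from the start site. The EHMT2 window also holds CACGTG, beginning 30 bases before the start site. Of the 15 windows of the 10 genes, 11 held a match in either form, against 43.2% of 35116 windows of the same length over all genes. The windows are not all separate, since those of KDM3A hold the same match and those of SETDB1 the same matches. The members' windows had 44.0% to 79.6% GC, and the 35116 windows were not matched to them for GC content. The part of GC content in these shares was not tested. The KDM3B window and some windows of JMJD1C and SUV39H1 held none. The letters alone do not show that a factor binds there.

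None of the 10 enzymes passed the test between the groups. edgeR's quasi-likelihood test with Benjamini-Hochberg adjustment called 0 of 10 members and 0 of all 16545 tested genes (0%), and the DESeq2 Wald test also called 0 of 10 members but 626 genes over all (3.78%), 243 higher (1.47%) and 383 lower (2.31%). In the edgeR test SUV39H1 and SUV39H2, 2 of 10 members, had an unadjusted p under 0.05, against 14.8% of all tested genes. The members' median log2 fold change, ABCF1 over NC-1, was -0.11, with 4 positive and 6 negative, against a median of 0.0005 over all tested genes. With an offset for transcript length and GC content the members' median was -0.0074, with 5 positive and 5 negative, against 0.016 over all genes tested there. In bulk RNA, fewer cells that carry a transcript and less of it per cell cannot be told apart.

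**Figure D1:**
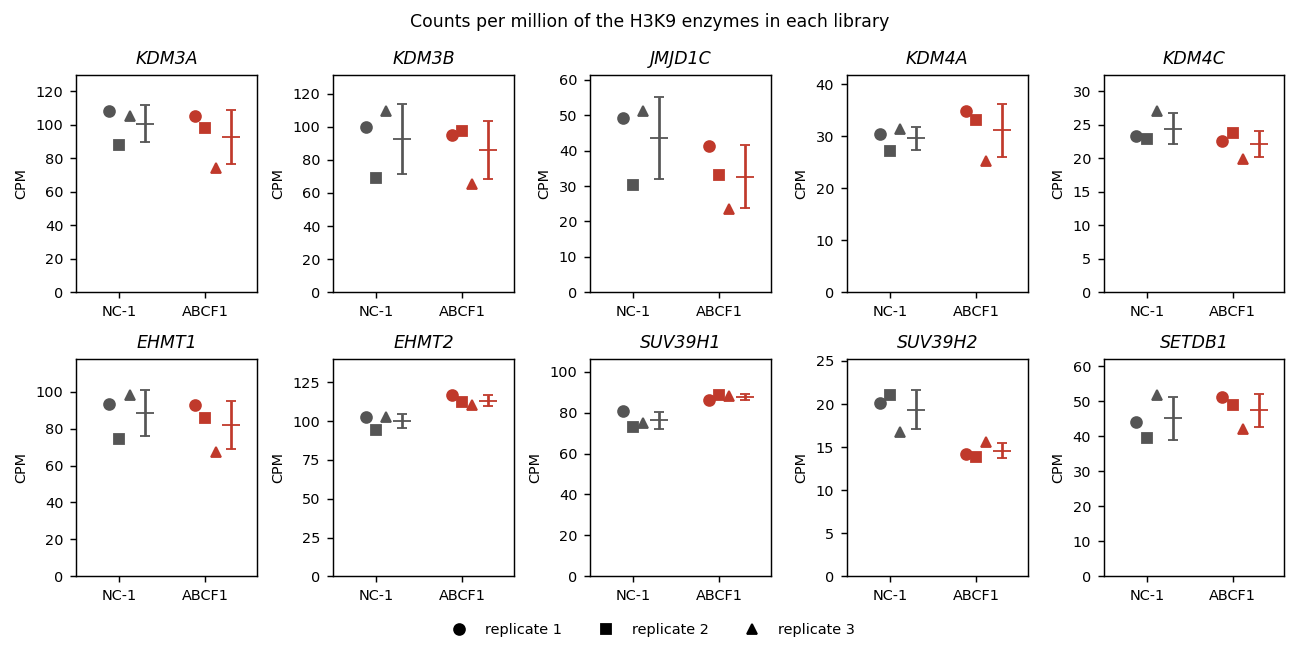
Each panel shows 1 gene, with CPM (from 0) on the vertical axis and the NC-1 and ABCF1 groups on the horizontal axis. Circles, squares and triangles are replicates 1, 2 and 3, and the bar beside them is the mean with 1 SD (n = 3). The groups do not overlap for EHMT2, SUV39H1 and SUV39H2, and ABCF1 replicate 3 and NC-1 replicate 2 are the lowest libraries for KDM3A, KDM3B, JMJD1C, KDM4A, EHMT1 and SETDB1.

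The gene of the demethylase KDM3A (ENSG00000115548) spans chr2:86440647-86492716, plus strand, in the GRCh38 coordinates of the files, as do all intervals below. KDM3A took 6613, 6776 and 5372 counts in ABCF1 replicates 1, 2 and 3 and 7749, 5592 and 7248 in NC-1. Scaled to library size these were 105, 98.1 and 74.2 CPM against 108, 87.8 and 105 CPM. The groups overlapped, and the lowest value in each was that of the library lying apart on the first component. For KDM3A the log2 fold change came to -0.12 (SE 0.15), with a 95% interval from -0.47 to 0.23, or 0.72-fold to 1.17-fold (edgeR adjusted p = 0.74). Without ABCF1 replicate 3 it was 0.02, and with an offset that removes each library's trend with transcript length and GC content it was 0.09 (SE 0.07), so its sign differed between settings.

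KDM3B (chr5:138352685-138437028, plus strand), the closest relative of KDM3A, was at 95.3, 97.2 and 65.6 CPM in ABCF1 against 99.7, 69.0 and 110 CPM in NC-1. Within each group the library lying apart was again far below the other 2. The log2 fold change of KDM3B was -0.11 (SE 0.21, edgeR adjusted p = 0.84), with a 95% interval from -0.59 to 0.37, and it was 0.06 without ABCF1 replicate 3 and 0.03 without NC-1 replicate 3.

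JMJD1C (chr10:63167221-63521850, minus strand), the third member of the KDM3 family, whose own H3K9 activity is debated, was at 41.3, 33.1 and 23.6 CPM in ABCF1 against 49.3, 30.3 and 51.3 CPM in NC-1. NC-1 replicate 2 lay below ABCF1 replicates 1 and 2, so the groups overlapped. The log2 fold change of JMJD1C, -0.42 (SE 0.25), was the most negative of the 10 and did not pass (edgeR adjusted p = 0.46, 95% interval -0.999 to 0.16). It was -0.22 without ABCF1 replicate 3 and -0.63 without ABCF1 replicate 1. Of the exonic bases of JMJD1C, 113 lie inside the interval of REEP3 on the opposite strand. REEP3 had a log2 fold change of -0.39 (SE 0.08). Which of these bases are exonic in REEP3 was not examined, nor was this done for the overlaps below. Whether the counting used strand is not given in the sources used here, so which gene such reads were counted for cannot be told.

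KDM4A (chr1:43650149-43705518, plus strand) was at 34.9, 33.1 and 25.3 CPM in ABCF1 against 30.4, 27.1 and 31.3 CPM in NC-1, a log2 fold change of 0.07 (SE 0.14, edgeR adjusted p = 0.84). That sign turned with scaling by library size only (-0.03), on the RPKM scale and without ABCF1 replicate 1. KDM4C (chr9:6720863-7175648, plus strand) was at 22.5, 23.8 and 19.9 CPM against 23.2, 22.8 and 27.0 CPM, a log2 fold change of -0.14 (SE 0.12, edgeR adjusted p = 0.59). The value for KDM4C was -0.068 without ABCF1 replicate 3 and -0.062 without NC-1 replicate 3. In deposited RPKM its groups did not overlap, at 4.23 to 5.02 against 5.06 to 5.93. Exonic bases of KDM4A lie inside the interval of KDM4A-AS1 on the opposite strand, which took 59 to 135 counts.

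Among the methyltransferases, SUV39H2 (chr10:14878820-14904315, plus strand) had the smallest p of the 10. It took 896, 960 and 1128 counts in ABCF1 and 1441, 1341 and 1155 in NC-1, or 14.3, 13.9 and 15.6 CPM against 20.1, 21.1 and 16.8 CPM. All 3 ABCF1 libraries lay below all 3 NC-1 libraries, and the same held in RPKM, at 4.22 to 4.57 against 5.35 to 6.93. The log2 fold change of SUV39H2 was -0.41 (SE 0.12), with a 95% interval from -0.68 to -0.13, an unadjusted p of 0.0098 and an edgeR adjusted p of 0.26, so it did not pass over all genes. Over 21 alternative settings it stayed negative, from -0.52 to -0.24, with adjusted p from 0.0099 to 0.62. Of the exonic bases of SUV39H2, 2346 lie inside the interval of DCLRE1C on the opposite strand. DCLRE1C, a DNA repair gene, took 590 to 786 counts and had a log2 fold change of 0.17 (SE 0.12).

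SUV39H1 (chrX:48695554-48709016, plus strand), which shares the trimethylating activity of SUV39H2, was at 86.2, 88.7 and 88.4 CPM in ABCF1 against 80.9, 73.0 and 75.1 CPM in NC-1. The ABCF1 libraries all lay above the NC-1 libraries in CPM, whereas the RPKM values overlapped, at 27.5 to 28.8 against 24.5 to 28.7. SUV39H1 had a log2 fold change of 0.20 (SE 0.09, unadjusted p 0.046, edgeR adjusted p = 0.33). The ratio of SUV39H1 to SUV39H2 in RPKM was 6.66, 6.80 and 6.01 in ABCF1 against 4.15, 3.65 and 4.80 in NC-1. An exact two-sided permutation test of the log2 ratio gave p = 0.10, the smallest that 3 against 3 libraries can give, and 0.27 adjusted over the 4 related pairs compared.

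EHMT2 (chr6:31879759-31897687, minus strand) was at 117, 112 and 111 CPM in ABCF1 against 102, 94.6 and 103 CPM in NC-1, without overlap. Its log2 fold change was 0.18 (SE 0.08, edgeR adjusted p = 0.36). In RPKM the groups overlapped, at 23.8 to 26.7 against 21.97 to 25.2. EHMT1 (chr9:137618992-137870016, plus strand), its partner, was at 92.7, 85.8 and 67.5 CPM against 93.1, 74.4 and 98.3 CPM, with overlap and a log2 fold change of -0.11 (SE 0.15, edgeR adjusted p = 0.77) that was 0.02 without ABCF1 replicate 3. The ratio of EHMT2 to EHMT1 in RPKM was 1.62 ± 0.20 against 1.32 ± 0.15 (SD, n = 3, exact permutation p = 0.20, adjusted p = 0.27). The ratio of KDM4A to KDM4C was 1.30 ± 0.16 against 1.14 ± 0.07 (SD, n = 3, exact permutation p = 0.20, adjusted p = 0.27), and that of KDM3A to KDM3B was 1.54 ± 0.12 against 1.57 ± 0.26 (SD, n = 3, exact permutation p = 1).

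SETDB1 (chr1:150926263-150964744, plus strand), the enzyme that KRAB zinc finger proteins recruit through TRIM28, was at 51.0, 49.0 and 41.9 CPM in ABCF1 against 44.0, 39.5 and 51.8 CPM in NC-1. Its log2 fold change was 0.07 (SE 0.13, edgeR adjusted p = 0.84), a sign that turned with library size only (-0.03), on the RPKM scale and without NC-1 replicate 2 (-0.02). Of the exonic bases of SETDB1, 3303 lie inside the interval of CERS2 on the opposite strand. CERS2 took 19850 to 26308 counts against 2518 to 3562 for SETDB1, and had a log2 fold change of 0.19 (SE 0.08).

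In CPM, 3 of the 10 members (EHMT2, SUV39H1 and SUV39H2) had groups that did not overlap, against 23.1% of all tested genes. For 6 of the 10 (KDM3A, KDM3B, JMJD1C, KDM4A, EHMT1 and SETDB1), both libraries lying apart were below all 4 others, against 18.9% of all tested genes. These 6 have transcripts of 4437 to 8741 bases, while KDM4C has 4655, EHMT2 4129, SUV39H2 3087 and SUV39H1 2978, taking the longest GENCODE 29 transcript of each gene. The median over tested genes was 3175. The part of transcript length in these values was not tested.

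**Figure D2:**
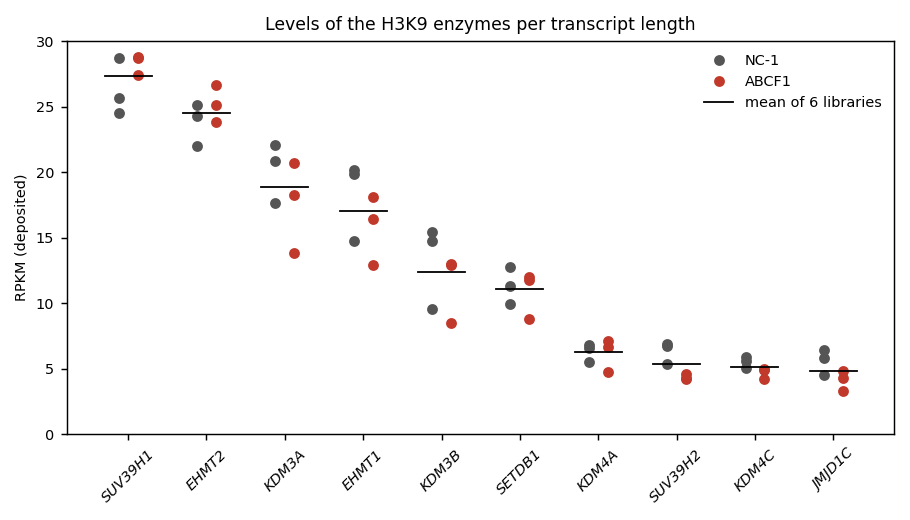
Deposited RPKM, which is scaled to transcript length, is plotted from 0 for each gene in order of its mean over 6 libraries (black line), with NC-1 libraries in grey and ABCF1 libraries in red. SUV39H1 and EHMT2 are highest and JMJD1C lowest, and the only neighbours whose ranges are separate are SETDB1 and KDM4A.

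Per transcript length, SUV39H1 was the most abundant of the 10, at 27.3 ± 1.82 RPKM (SD over 6 libraries), followed by EHMT2 at 24.5 ± 1.58 RPKM and KDM3A at 18.9 ± 2.97 RPKM. EHMT1 was at 17.0 ± 2.90 RPKM, KDM3B at 12.4 ± 2.78 RPKM and SETDB1 at 11.1 ± 1.48 RPKM. KDM4A, SUV39H2, KDM4C and JMJD1C were between 4.87 and 6.26 RPKM on average. The ranges of every pair of neighbours in this order overlapped except SETDB1 (8.78 to 12.8 RPKM) and KDM4A (4.77 to 7.15 RPKM). Within each of the 6 libraries, however, the order SUV39H1, EHMT2, KDM3A, EHMT1 and KDM3B was the same, whereas KDM3B and SETDB1 changed places between libraries. Summed over the 5 demethylase genes, the level was 50.6, 47.2 and 34.7 RPKM in ABCF1 and 55.1, 42.3 and 55.3 RPKM in NC-1, and over the 5 methyltransferases 89.9, 86.3 and 77.5 RPKM against 92.3, 77.9 and 88.1 RPKM. Both sums overlapped between the groups.

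With the side of the first principal component (the library set) as a covariate, edgeR called 4 of the 10 members, 2 lower and 2 higher, against 25.3% of all tested genes, 12.5% lower and 12.9% higher. Lower were JMJD1C (log2 fold change -0.41, SE 0.08, adjusted p = 0.0058) and SUV39H2 (-0.41, SE 0.09, adjusted p = 0.0099). Higher were EHMT2 (0.18, SE 0.05, adjusted p = 0.019) and SUV39H1 (0.20, SE 0.05, adjusted p = 0.020). KDM3A had a log2 fold change of -0.13 (SE 0.06) there and did not pass (edgeR adjusted p = 0.12). Of the overlapping genes, edgeR also called REEP3 there (-0.39, SE 0.06, adjusted p = 0.0022) and CERS2 (0.19, SE 0.04, adjusted p = 0.0089). DCLRE1C, JMJD1C-AS1 and KDM4A-AS1 were not called. The set was read from the same counts, so these p-values are not those of a planned design. Among the 4 libraries that did not lie apart, edgeR called JMJD1C alone (-0.43, SE 0.10, adjusted p = 0.034), against 10.8% of all genes tested there.

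When the length and GC offset was added to the library set, 0 of 10 members were called by edgeR, against 6.78% of 16357 genes, and 2 of 10 (EHMT1 and SUV39H2) had an unadjusted p under 0.05, against 21.8% of those genes. SUV39H2 then had a log2 fold change of -0.24 (SE 0.08, adjusted p = 0.12), JMJD1C of -0.15 (SE 0.08, adjusted p = 0.30), SUV39H1 of 0.08 (SE 0.05) and EHMT2 of 0.07 (SE 0.04). KDM3A was at 0.09 (SE 0.05, adjusted p = 0.35) and EHMT1 at -0.12 (SE 0.05, adjusted p = 0.19). A call lost in this way does not show that the difference is absent.

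**Figure D3:**
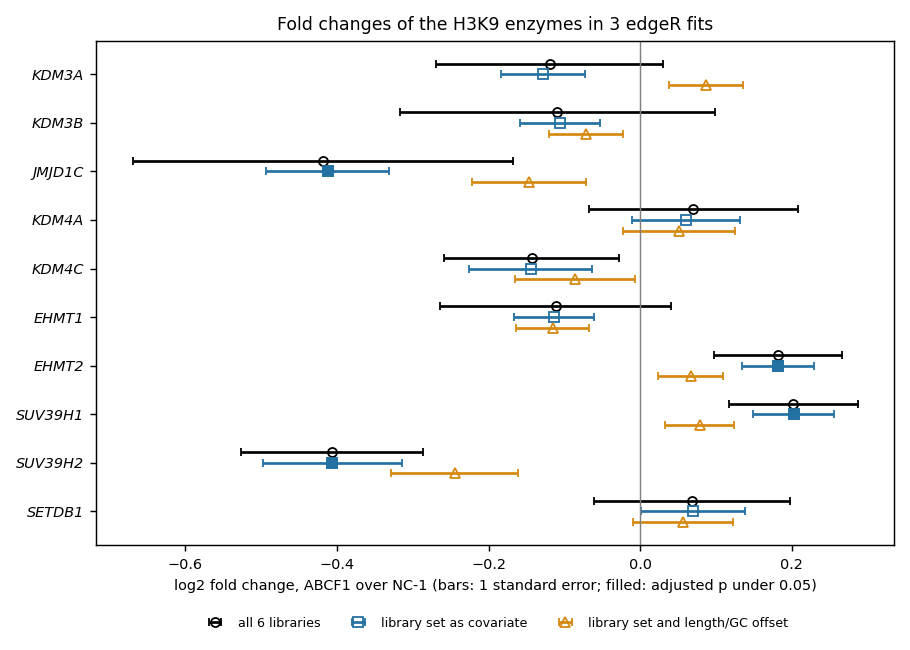
Log2 fold changes of ABCF1 over NC-1 (horizontal axis) with 1 standard error for the 10 genes in 3 edgeR fits, where black circles use all 6 libraries, blue squares add the library set and orange triangles add the library set and the length and GC offset. Filled symbols passed at an adjusted p under 0.05, which 4 genes did in the library set fit and none in the other 2 fits, and KDM3A moves from -0.12 to 0.09.

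The members' fold changes followed the GC content of their transcripts. The most negative, JMJD1C and SUV39H2, have 39.9% and 41.1% GC, and the most positive, SUV39H1 and EHMT2, have 57.6% and 60.9%, against a median of 49.2% over tested genes. Over the 10 members, Spearman's rho between log2 fold change and GC content was 0.89, and over all tested genes it was 0.49. For transcript length the same rho was -0.54 over the 10 members and -0.28 over all tested genes. These genes share the 6 libraries and are not independent, so the values are descriptive. All 10 members lie at 10 CPM or more, while the tested genes were not matched to them for abundance. The rho of the members and of all tested genes are therefore not directly comparable.

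**Figure D4:**
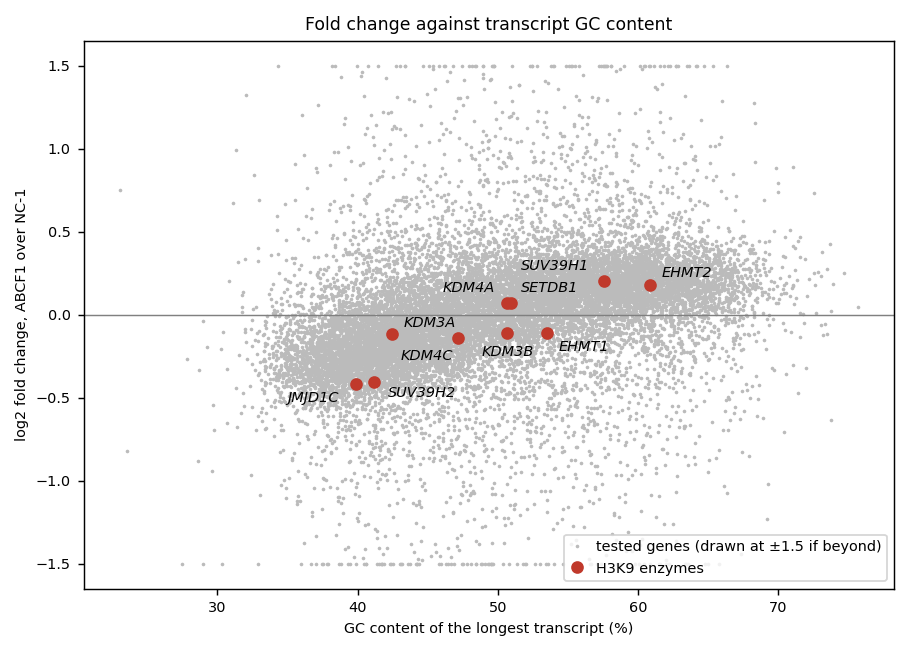
Log2 fold change of ABCF1 over NC-1 (vertical axis) against the GC content in percent of the longest transcript (horizontal axis) for all tested genes (grey, drawn at the edge if beyond 1.5) and the 10 H3K9 enzymes (red). JMJD1C and SUV39H2 sit low at 39.9% and 41.1% GC, and SUV39H1 and EHMT2 sit high at 57.6% and 60.9%.

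Across the 6 libraries, the member most like KDM3A was EHMT1 (Pearson r of log2 CPM 0.97), followed by JMJD1C (0.94) and KDM3B (0.92), while EHMT2 (0.04), SUV39H2 (0.01) and SUV39H1 (-0.21) were unlike it. Among 9485 genes with a mean of 10 CPM or more, those most like KDM3A were PICALM, EAF1, ADNP2, ABCC2 and ACVR2B, with r from 0.994 to 0.996. EHMT1, JMJD1C and KDM3B share with KDM3A their lowest values in ABCF1 replicate 3 and NC-1 replicate 2. So do KDM4A (r 0.84) and SETDB1 (0.66) but not KDM4C (0.74), and so do 18.9% of all tested genes. All r are over the same 6 libraries and are descriptive.

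Of the other genes of H3K9 methylation and of the HIF pathway, edgeR called 0 of 43 tested over all 6 libraries. It called 0 of all 16545 tested genes (0%) there. The median log2 fold change of the 43 was -0.06, against 0.0005 over all tested genes. In the library set fit 6 of 43 were higher and 14 lower, against the 12.9% and 12.5% of all tested genes given above. Once the offset for length and GC was included 3 were higher and 2 lower, against 5.09% and 1.69%. These gene lists, here and in the next paragraph, were chosen with earlier results of these data known, so the counts are descriptive. The partners and readers of the mark had 1 of 14 higher and 8 lower in the library set fit, against the same 12.9% and 12.5%. Among them CBX3, a heterochromatin protein that binds methylated H3K9, was at 172 ± 27.6 CPM against 226 ± 31.9 CPM (SD, n = 3), CBX5, of the same family, at 151 ± 22.2 CPM against 190 ± 32.8 CPM, and TASOR, a subunit of the HUSH silencing complex, at 49.1 ± 6.92 CPM against 67.8 ± 4.74 CPM. With the offset CBX3 was still called (log2 fold change -0.24, SE 0.05, edgeR adjusted p = 0.017), and CBX5 (-0.10) and TASOR (-0.15) were not. The other reader called lower with the offset, UHRF1 (-0.25, SE 0.04), is named after its values were seen.

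Other H3K9 demethylases had 1 of 7 tested higher and 1 lower in the library set fit, against 12.9% and 12.5% of all tested genes. These were HR (log2 fold change 0.17, SE 0.05) and KDM7A (-0.35, SE 0.06). Of 4 other methyltransferases 1, MECOM, was lower there (-0.35, SE 0.09), against 12.5% of all tested genes. SETDB2, PRDM2 and PRDM16 were not called, and PRDM16 was at 0.55 CPM at most. HR, KDM7A and MECOM were not called with the offset. HIF1A, the oxygen-regulated HIF subunit, was at 80.5 ± 14.8 CPM against 102 ± 11.2 CPM (SD, n = 3) and EGLN1, the oxygen-sensing hydroxylase that marks it for decay, at 159 ± 0.68 CPM against 185 ± 6.39 CPM. Both were called lower in the library set fit (-0.35, SE 0.06 and -0.22, SE 0.05) and not with the offset. ARNT, the constitutive HIF partner subunit, was called higher with the offset (0.24, SE 0.05, edgeR adjusted p = 0.029) and is likewise named after its values were seen. Of 10 hypoxia targets 4 were higher and 2 lower in the library set fit, against 12.9% and 12.5% of all tested genes. With the offset 2 were higher and 0 lower, against 5.09% and 1.69%. NDRG1 was at 2114 ± 129 CPM against 1751 ± 71.2 CPM, CA9, a carbonic anhydrase, at 238 ± 25.6 CPM against 186 ± 26.0 CPM and ANKRD37 at 36.3 ± 6.97 CPM against 25.5 ± 3.67 CPM (SD, n = 3). NDRG1 (0.23, SE 0.03) and ANKRD37 (0.56, SE 0.07) were still called by edgeR with the offset, and CA9 (0.16, SE 0.05, adjusted p = 0.073) was not. In RPKM the NDRG1 groups overlapped, at 551 to 645 against 524 to 579. In the library set fit SLC2A1 (0.21, SE 0.04) was also higher, and PDK1 (-0.17, SE 0.05) and P4HA1 (-0.16, SE 0.05) were lower. SLC2A1, PDK1 and P4HA1 were not called with the offset. VEGFA (-0.04), ADM (0.09), BNIP3 (0.10) and BHLHE40 (0.03) were called in neither fit. These further targets are named after their values were seen.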

How the data were processed

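RNA was extracted with Trizol and made into libraries with a TruSeq kit, per the labels' protocols. The authors deposited whole-number counts per gene, without normalization, and RPKM (reads scaled to transcript length and depth) for the same 6 libraries. HISAT2, StringTie, edgeR, Trimmomatic, FastQC and CASAVA 1.8 appear with the GRCh38 build in the submitters' processing notes. Their roles, annotation release and strand setting were not given in the sources used here. Counts were modelled using edgeR 4.0.16 under R 4.3.3 (TMM, expression filter, two-sided quasi-likelihood test, adjustment over 16545 genes, called under 0.05), after the script was tested on simulated data. That test first asked for recovery of changed genes at any abundance and failed for low, variable genes, and its criterion was then limited to genes at 10 CPM or more, where all members lie. SE is the fold change divided by the root of F. DESeq2 1.42.0, limma 3.58.1 and mgcv 1.9.3 (smooth length and GC offset, from GENCODE 29 transcripts, 98.9% of tested genes) served as alternatives. Promoter sequences are RefSeq's, and 10 of 10 members matched. The members, gene lists and alternatives were chosen with earlier results of these data known. Named from the lists were up to 3 genes called in the test on 6 libraries or, failing that, in the library set fit. From all other genes the 5 most correlated with KDM3A were named. The other H3K9 and HIF genes reported by name were named after their values were seen.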

Additional observations from a re-analysis of the deposited data

How the results depend on the processing

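Of 210 fold changes of the 10 members under 21 alternatives, 189 kept their sign and side of the threshold, 5 passed in addition and 16 changed sign. Only DESeq2, the library set, leaving out both libraries lying apart, and the library set with the offset called any gene at all. In all other alternatives no member passed because no gene did, so keeping the side of the threshold there adds nothing. The number of members called was 4 of 10 with the library set, 1 of 10 without both libraries lying apart and 0 otherwise. For the other H3K9 and HIF genes it was 2 of 43 with DESeq2, 20 of 43 with the library set and 11 of 42 without both libraries. With the library set and the length and GC offset it was 5 of 43. The shares over all tested genes in these fits, in that order, were 3.78%, 25.3%, 10.8% and 6.78%. The log2 fold change of KDM3A was 0.087 with the offset, alone or with the library set, and -0.23 to 0.024 when 1 library was left out. Leaving out 1 library gave -0.28 to 0.060 for KDM3B, -0.026 to 0.21 for KDM4A, -0.22 to 0.017 for EHMT1 and -0.018 to 0.18 for SETDB1. With library size only, KDM4A was at -0.026 and SETDB1 at -0.030. On log2(RPKM + 1), filtered or not, they were at -0.034 and -0.064, and on log2(RPKM + 0.1) at -0.041 and -0.070. The cause was not tested. With the replicate number as a block KDM3A was at -0.13 and 0 genes were called by edgeR. Same-numbered libraries did not deviate together (r of 0.11, -0.11 and -0.15), so the numbers are not taken as pairs. Counting error was 1.14% to 3.17% of a member's mean count in a group. The SD between libraries was over 2 times that in 18 of 20 member and group pairs, except in ABCF1 for SUV39H1 (1.55% against 1.29%) and SUV39H2 (6.06% against 3.17%).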
